A study of Saccharomyces cerevisiae with 6 samples.

Results

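Purine salvage and guanine nucleotide synthesis genes were compared between budding yeast (Saccharomyces cerevisiae) with the K91A form of histone H4 and yeast with wild-type histone H4. The members were the IMP dehydrogenase paralogs IMD1 to IMD4, the GMP synthase gene GUA1, and the salvage genes HPT1, APT1, APT2 and AAH1. They were found by their symbol in the platform annotation, which gave 11 probe sets of 9335 on the array. These covered 8 of the 9 genes, since no probe set carried the symbol IMD1 in the annotation used here. All 11 passed the filter that left out the dimmest 25% of probe sets, and their lowest place on any array was the 27.3 percentile.

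The study used 6 single-sample oligonucleotide arrays of total RNA, 3 titled K91A and 3 titled WT. The K91A strain carries a lysine-to-alanine change in histone H4 and the WT strain an unchanged histone H4. Both grew in YPD, a rich glucose medium made with yeast extract and peptone, and were collected during logarithmic growth. The labels do not say whether the replicates were separate cultures, so p-values measure the spread between these samples only.

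Several facts about the arrays and strains bear on every comparison here. K91A 3 is titled K91A, but its description calls it WT. It was kept by its title, and no probe set of 6931 passed the limma test when it was counted as WT (1056 had an unadjusted p under 0.05). Median intensity was 745 on K91A 3 and 1828 to 3117 on the other 5. The ratio of 5' to 3' signal of the actin control, which falls when RNA is degraded or labelling stops short, ranged from 0.843 to 0.877 with K91A RNA and from 0.110 to 0.365 with WT RNA (exact permutation p = 0.1, two-sided, which is the lowest value possible with 3 arrays a group). The strains also differed in common marker genes. ADE2, an enzyme of the adenine pathway, had a log2 fold change of -5.73 (limma adjusted p = 0.000186), and TRP1, an enzyme of tryptophan synthesis, one of 5.28 (adjusted p = 0.0012). The deposited ADE2 intensity was 231 on K91A 3, 684 on K91A 1, 583 on K91A 2, and 32505 to 47627 on the WT arrays. In ADE2 and in the actin ratio K91A 3 thus lay with the other K91A arrays.

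In yeast, purine nucleotides are made along a shared route that ends in IMP, where the pathway forks. IMP dehydrogenase converts IMP to XMP, the committed step towards GTP, and GMP synthase converts XMP to GMP. Salvage enzymes join ready-made bases to phosphoribosyl pyrophosphate (PRPP) and so return them to the nucleotide pool without the long synthesis. Of the IMD genes, IMD2 is known to be induced when guanine nucleotides run low, and IMD1 is a copy with a broken reading frame in the reference strain.

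All values below are on the scale log2(intensity + 16) after quantile normalization, and differences are K91A minus WT. Salvage genes carried most of the calls: AAH1, HPT1 and APT1 were lower in K91A and APT2 was higher, while the probe sets named IMD2 and IMD3, the brighter of those named IMD4, and GUA1 did not pass. Of the 11 probe sets, 3 were lower and 2 higher at a limma adjusted p under 0.05. Over all probe sets 30.2% passed, 14.8% lower and 15.4% higher. The median log2 fold change was -0.13 over the 11 and -0.070 over all 6931 tested. Groups did not overlap for 6 of the 11, against 51.1% of all probe sets.

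**Figure D1:**
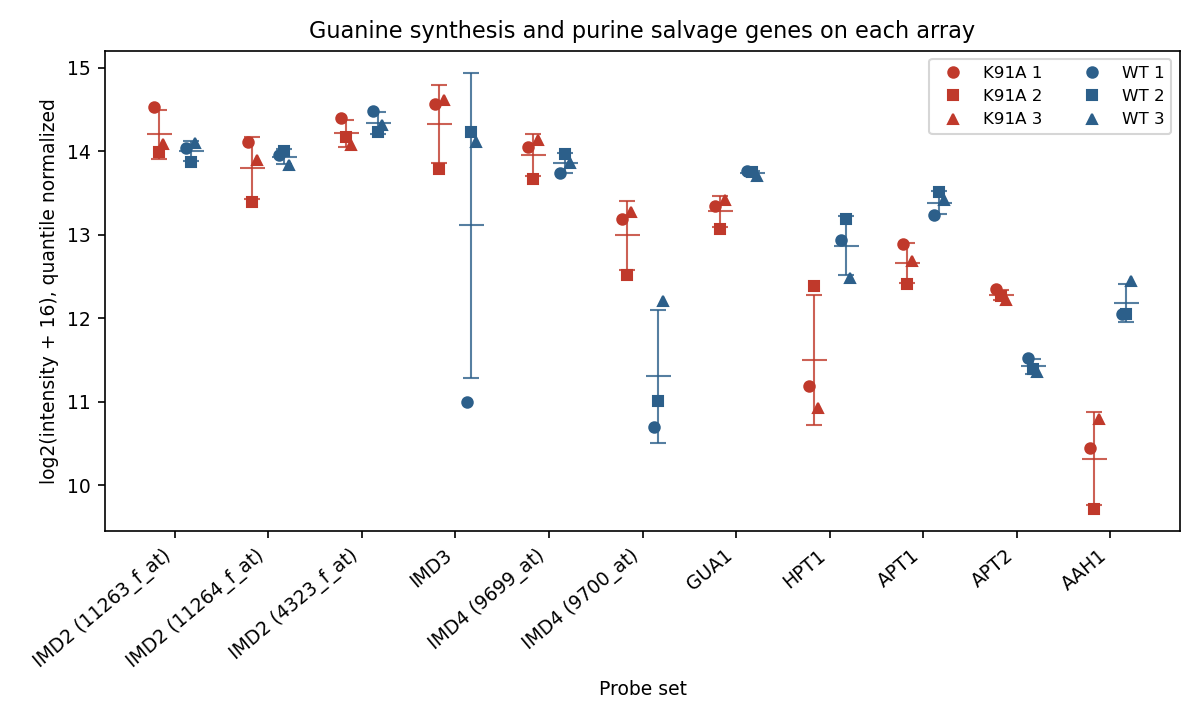
Normalized level (log2(intensity + 16)) of the 11 probe sets on each of the 6 arrays; points are arrays, horizontal ticks are group means and bars 1 SD (n = 3). The K91A points of AAH1, HPT1, APT1 and GUA1 lie below the WT points and those of APT2 lie above, while 1 WT point of IMD3, WT 1 at 11.00, lies far below the rest.

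AAH1 showed the largest fall of the members. It encodes adenine deaminase, which turns adenine into hypoxanthine and so lets adenine from outside feed guanine synthesis. In K91A 1, 2 and 3 its level was 10.45, 9.71 and 10.80, and in WT 1, 2 and 3 it was 12.05, 12.04 and 12.44. Every K91A array was below every WT array. The deposited intensities were 1870.2, 970.1 and 661 on the K91A arrays and 5962, 6997 and 5702 on the WT arrays, so the order held before normalization as well. AAH1 was thus 3.63-fold lower in K91A (95% interval 2.20 to 5.99, log2 fold change -1.86, SE 0.31, limma adjusted p = 0.00657, n = 3 each). Its log2 fold change was lower than or equal to all but 2.31% of those of the 6931 probe sets. With each array left out in turn, the call was kept each time, between -2.06 and -1.60. In RNA from whole cultures, fewer cells with the transcript and less of it per cell cannot be told apart.

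HPT1 encodes hypoxanthine-guanine phosphoribosyltransferase, the enzyme that makes IMP and GMP from the free bases and acts on the product of adenine deaminase. K91A 1, 2 and 3 read 11.19, 12.39 and 10.93 for it, and WT 1, 2 and 3 read 12.93, 13.19 and 12.49. The groups did not overlap, but K91A 2 lay only just below WT 3. HPT1 was 2.57-fold lower in K91A (log2 fold change -1.36, 95% interval -2.32 to -0.40, SE 0.41, limma adjusted p = 0.0429). This call depended on nearly the full set of arrays. Leaving out K91A 1 (adjusted p = 0.108), K91A 3 (0.0910), WT 1 (0.118), WT 2 (0.137) or WT 3 (0.0645) ended it, as did taking out the dependence of signal on gene length in each array (0.0619).

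The adenine phosphoribosyltransferase paralogs moved in opposite directions. APT1 encodes the enzyme that makes AMP from adenine, and APT2 encodes a related protein for which little activity has been found. APT1 was at 12.88, 12.41 and 12.68 on K91A 1, 2 and 3, and at 13.23, 13.51 and 13.41 on WT 1, 2 and 3. It was 1.65-fold lower in K91A (95% interval 1.21 to 2.27, log2 fold change -0.72, SE 0.19, limma adjusted p = 0.0298).

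APT2 was at 12.34, 12.26 and 12.22 on the K91A arrays and at 11.53, 11.40 and 11.35 on the WT arrays. Both groups were tight, with an SD of 0.062 in K91A and 0.091 in WT. APT2 was 1.80-fold higher in K91A (95% interval 1.37 to 2.37, log2 fold change 0.85, SE 0.17, limma adjusted p = 0.0121). Within each array, APT1 minus APT2 lay between 0.15 and 0.54 with K91A RNA and between 1.71 and 2.11 with WT RNA. The change in this difference was -1.57 (two-sided exact permutation p = 0.1, the smallest possible with 3 against 3, and 0.4 after adjustment over the 4 paralog pairs compared). It was -1.70 on the values as deposited and with median centring.

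Both APT calls had limits. APT1 no longer passed when K91A 3 (adjusted p = 0.0599), WT 1 (0.0745), WT 2 (0.127) or WT 3 (0.0649) was left out, at -0.47 with the length dependence removed (0.104), or at -1.61 on the values as deposited (0.0550). APT2 did not pass without WT 2 (0.0641), and on the values as deposited its log2 fold change was 0.088 (adjusted p = 0.945), where the median of all probe sets was -0.82.

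**Figure D2:**
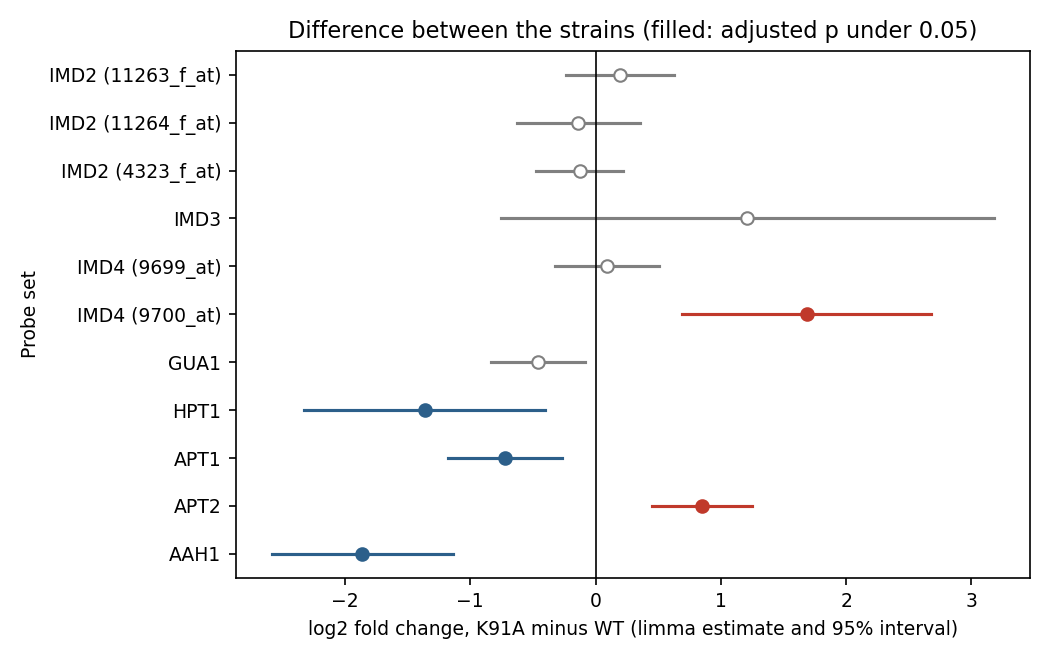
Log2 fold change, K91A minus WT, of the 11 probe sets with the 95% interval of the limma fit; filled points had an adjusted p under 0.05. AAH1 (-1.86), HPT1 (-1.36) and APT1 (-0.72) lie to the left of 0, APT2 (0.85) and 1 IMD4 probe set (1.69) to the right, and the interval of IMD3 spans -0.76 to 3.18.

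No difference past the threshold was found for the probe sets named IMD2, which encodes the inducible IMP dehydrogenase. The 3 of them and the 1 named IMD3 carry the suffix _f_at, used for probes that are common to a gene family, so each may also read other IMD transcripts, and the symbols are those of the annotation. The brightest IMD2 probe set (4323_f_at) was at 14.39, 14.17 and 14.07 on the K91A arrays and 14.48, 14.22 and 14.31 on the WT arrays. Its groups overlapped, with a log2 fold change of -0.13 (95% interval -0.47 to 0.22, limma adjusted p = 0.534). The others had -0.14 (11264_f_at, 95% interval -0.63 to 0.36, adjusted p = 0.641) and 0.20 (11263_f_at, 95% interval -0.23 to 0.63, adjusted p = 0.437). All 3 intervals stay within a 2-fold change in either direction. They bound the signal of each probe set and not IMD2 RNA alone, since signal shared with other IMD transcripts could hide a change in IMD2. Between these probe sets Pearson's r across the arrays was 0.42 (11263_f_at and 11264_f_at), 0.38 (11263_f_at and 4323_f_at) and 0.44 (11264_f_at and 4323_f_at). Whether any of them was designed for IMD1 is not known from the annotation used here. Each of these probe sets lay at or above the 90.8 percentile of its array, near the top of the range in both strains. The sign of 11263_f_at turned with median centring (-0.060) and on the values as deposited (-0.71).

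The probe set named IMD3, another IMP dehydrogenase paralog, had 1 array that decided its value. It was at 14.56, 13.78 and 14.61 on K91A 1, 2 and 3, and at 11.00, 14.22 and 14.11 on WT 1, 2 and 3. In deposited intensities WT 1 was at 2723, against 33667 on WT 2 and 18816 on WT 3. WT 1 lay at the 50.7 percentile, while the other 5 arrays lay at the 94.1 to 98.5 percentile. The log2 fold change was 1.21 (95% interval -0.76 to 3.18, limma adjusted p = 0.301), and without WT 1 it was 0.15 (adjusted p = 0.736). A gap as wide as this one, 2.79 on the log2 scale between the lowest array and the next, was found with WT 1 lowest for 4 of 6931 probe sets, IMD3 included, and with K91A 3 lowest for 92. The family-marked IMD2 probe sets showed no such drop on WT 1.

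The 2 probe sets named IMD4 disagreed. IMD4 is a constitutive IMP dehydrogenase gene that contains an intron. The brighter probe set (9699_at) was at 14.05, 13.66 and 14.13 on K91A 1, 2 and 3 and at 13.73, 13.97 and 13.86 on WT 1, 2 and 3. These groups overlapped, with a log2 fold change of 0.093 (95% interval -0.32 to 0.51, limma adjusted p = 0.709), a sign that turned with median centring (-0.14) and on the values as deposited (-0.79).

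The dimmer IMD4 probe set (9700_at) was at 13.18, 12.52 and 13.27 on the K91A arrays and at 10.70, 11.01 and 12.20 on the WT arrays. All K91A arrays were above all WT arrays, and WT 3 was the highest of its group. It was 3.22-fold higher in K91A (95% interval 1.62 to 6.40, log2 fold change 1.69, SE 0.42, limma adjusted p = 0.0244). Leaving out K91A 1 (adjusted p = 0.0668), K91A 3 (0.0523), WT 1 (0.0809) or WT 2 (0.0870) ended this call, and so did the values as deposited (0.90, adjusted p = 0.333).

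Both probe sets carry the name of 1 gene, so they were also compared within each array. The difference (9700_at minus 9699_at) came to -0.87, -1.14 and -0.87 for K91A 1, 2 and 3, and to -3.03, -2.96 and -1.66 for WT 1, 2 and 3. It was higher on the K91A arrays by 1.59 (two-sided exact permutation p = 0.1, the smallest possible). The actin 5' over 3' ratio was 0.865, 0.843 and 0.877 on the K91A arrays and 0.110, 0.114 and 0.365 on the WT arrays. Within the WT group WT 3 was thus the highest in both measures. Where the probes of either set lie along IMD4 is not known from the annotation used here, and the part of RNA quality or labelling in the result was not tested. The comparison between the IMD4 probe sets was chosen after their values were seen.

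**Figure D3:**
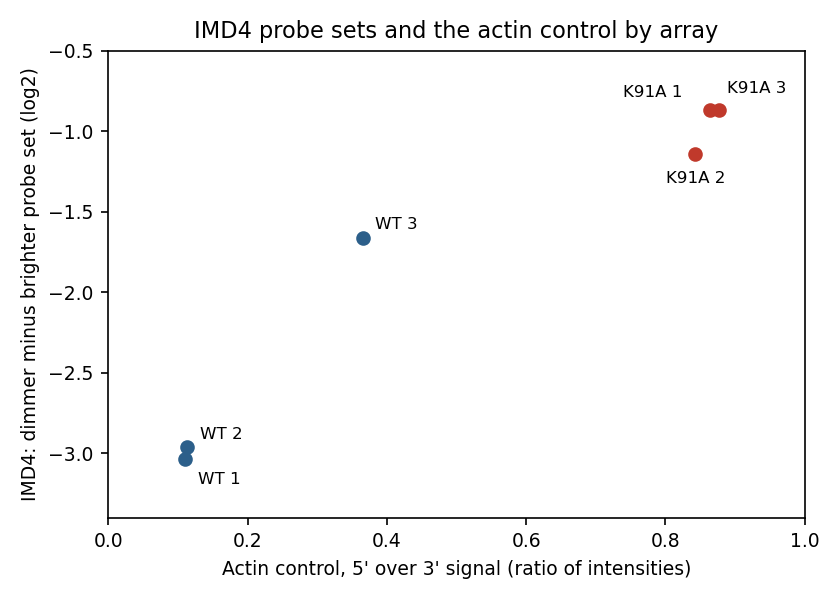
Difference between the 2 IMD4 probe sets (9700_at minus 9699_at, log2 scale) against the ratio of 5' to 3' signal of the actin control, 1 point per array. The K91A arrays lie together at the upper right (ratio 0.843 to 0.877), WT 1 and WT 2 at the lower left (0.110 and 0.114), and WT 3 between them (0.365).

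Differences between the IMD paralogs were not resolved. With the brightest probe set of each gene, the change in the within-array difference was -1.34 for IMD2 minus IMD3, -0.22 for IMD2 minus IMD4 and 1.12 for IMD3 minus IMD4. Two-sided exact permutation p-values were 0.4, 0.5 and 0.3, and each was 0.5 after adjustment over the 4 pairs. The comparisons with IMD3 rest on WT 1 as described above, and shared probes can blur any difference between the paralogs.

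GUA1 encodes GMP synthase, the step after IMP dehydrogenase. It was at 13.35, 13.07 and 13.41 on K91A 1, 2 and 3, and at 13.76, 13.75 and 13.70 on WT 1, 2 and 3. All K91A arrays were below the WT arrays, which varied little (SD 0.030, against 0.18 on the K91A arrays). The log2 fold change was -0.46 (95% interval -0.84 to -0.084, SE 0.16) and did not pass after adjustment (unadjusted p = 0.0232, limma adjusted p = 0.0671). It passed without K91A 2 (-0.37, adjusted p = 0.0491), with array weights (-0.41, adjusted p = 0.0261) and with the length dependence removed (-0.56, adjusted p = 0.0261).

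Across the 6 arrays, the normalized levels of several members ran together, described here with no test because the arrays fall into 2 strains. Pearson's r was 0.97 between AAH1 and GUA1, 0.94 between AAH1 and APT1, and 0.94 between APT1 and GUA1. APT2 ran opposite to them, with r of -0.94 against AAH1 and -0.91 against APT1. HPT1, whose K91A arrays were spread the most among the called members (SD 0.78), had r of 0.53 to 0.60 with AAH1, APT1 and GUA1. Against the IMD3 probe set, the IMD2 probe sets had r of -0.64 (4323_f_at), 0.25 (11263_f_at) and 0.0023 (11264_f_at). These values rest largely on WT 1, where IMD3 was at 11.00, against 13.78 to 14.61 on the other arrays.

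For each member called by its brightest probe set, which leaves out IMD4, the most similar probe sets of other genes were sought. Ranked by Pearson's r over the 6 arrays, they came from genes of varied kinds. For AAH1 they were SNR45, a small nucleolar RNA (r = 0.997), and EFR3 (r = 0.996). For HPT1 they were COS6 (r = 0.992) and NUP57, a nuclear pore protein (r = 0.991). For APT1 they were EBP2, a factor of ribosome assembly (r = 0.998), and SPE4, spermine synthase (r = 0.993). For APT2 they were VPS72, a subunit of a chromatin remodeller (r = 0.999), and YOL162W (r = 0.996). The likeness was ranked over 6 arrays in 2 groups and 6931 probe sets, and it describes patterns only.

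Other genes linked to purine metabolism were then set beside the members, using lists of 49 genes in 6 groups with 1 probe set, the brightest, per gene. The lists include 9 regulators and 6 genes of riboflavin synthesis, and all are called purine genes here for short. Of 46 tested, 15 were lower and 8 higher in K91A, with a median log2 fold change of -0.27. That is 32.6% lower and 17.4% higher, where all probe sets gave 14.8% and 15.4%. The route to IMP held 6 of the 15 falls among its 7 tested genes: ADE2, ADE17 (-1.75), ADE4 (-2.19) and ADE1 (-1.64) had the smallest p. ADE2 is also a common strain marker, as described above. Its difference splits the arrays just as the strains do, and its part in the values of the other genes, members included, was not tested. Leaving its probe set out of the count does not take that difference out of the other values. Without ADE2, a count chosen after seeing the data, 14 of 45 purine genes were lower (31.1%, median -0.24), 5 of them among 6 genes of the route to IMP (median -1.46). A single gene of this route rose, ADE16 (0.73, but -0.12 on the values as deposited), chosen with its value in view. Its call also ended with median centring (0.53, adjusted p = 0.170) and when K91A 1 (0.0627), K91A 3 (0.0654), WT 1 (0.0930) or WT 2 (0.110) was left out. It encodes the paralog of Ade17, the last enzyme before IMP.

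Enzymes on either side of the members were read next. Of 8 tested genes for the branch to AMP and for nucleotide interconversion, 4 were lower and 1 higher, with a median of -0.36. That is 50% and 12.5%, against 14.8% and 15.4% of all probe sets. ADE13, adenylosuccinate lyase, which acts both before IMP and on the way to AMP, fell by 1.11 on the log2 scale (SE 0.14, limma adjusted p = 0.00301). HAM1, which removes deaminated purine nucleotides such as ITP, fell by 2.05 (SE 0.31, adjusted p = 0.00492). GUK1, guanylate kinase, which turns GMP into GDP, had -0.62 (adjusted p = 0.0225), and ADK1, adenylate kinase, had -0.89 (adjusted p = 0.0166). The call of GUK1 ended without WT 1 (0.0938) or WT 2 (0.0926), with the length dependence removed (-0.36, adjusted p = 0.110) and with unscaled deposited values (-1.51, adjusted p = 0.0579), and that of ADK1 without WT 1 (0.0711) or WT 2 (0.0673).

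AMD1 was the gene of that group that rose. It encodes AMP deaminase, which returns AMP to IMP, and it was named after its value was seen. Its log2 fold change was 0.77 (SE 0.20, limma adjusted p = 0.0267), but -0.074 on the values as deposited. Leaving out K91A 1 (adjusted p = 0.0757), WT 1 (0.0956), WT 2 (0.0769) or WT 3 (0.0646) ended the call, as did median centring (0.57, adjusted p = 0.0689). ADE12, adenylosuccinate synthase, the first step from IMP to AMP, was at -0.0091 (adjusted p = 0.968). It was named after its value was seen, because it competes with the IMD enzymes for IMP.

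Of 11 tested genes of purine uptake and breakdown, 2 were lower and 2 higher (18.2% each, near the 14.8% and 15.4% of all probe sets), with a median of -0.24. FCY2, the main purine and cytosine permease, was lower (-1.12, SE 0.21, limma adjusted p = 0.0108), while its relative FCY21 was higher (1.25, SE 0.18, adjusted p = 0.00445). GUD1, guanine deaminase, which breaks guanine down to xanthine, was higher (1.11, SE 0.22, adjusted p = 0.0119), and the nucleosidase gene URH1 was lower (-0.85, SE 0.20, adjusted p = 0.0211). Without WT 2, FCY2 (adjusted p = 0.0546), GUD1 (0.0558) and URH1 (0.0769) no longer passed, and URH1 did not pass without K91A 1 (0.0618) or WT 1 (0.0899) either. On the values as deposited FCY21 (0.56, adjusted p = 0.610), GUD1 (0.49, 0.677) and URH1 (-1.56, 0.112) did not pass. XPT1, xanthine-guanine phosphoribosyltransferase, which is the salvage gene nearest in activity to HPT1, was at -0.24 (adjusted p = 0.491, named after its value was seen). FCY22, also named with its values in view, was left out as dim. Its mean was 10.62 in K91A and 8.18 in WT, and the groups did not overlap.

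None of the 5 PRS genes, which encode the synthetase of the PRPP that all phosphoribosyltransferases consume, passed limma's test, and 1 had an unadjusted p under 0.05. Their median log2 fold change was -0.30, and all 5 values were negative. Of 6 genes of riboflavin synthesis, which starts from GTP, 1 fell and 1 rose (median 0.20). That is 16.7% each, near the 14.8% and 15.4% of all probe sets. RIB4, lumazine synthase, was lower (-1.41, SE 0.15, adjusted p = 0.00212). RIB3 was higher (1.15, SE 0.35, adjusted p = 0.0476), a call that ended without any 1 array other than WT 3, with adjusted p between 0.0628 and 0.127. Median centring (0.99, adjusted p = 0.116) and unscaled deposited values (0.34, adjusted p = 0.739) ended it too.

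**Figure D4:**
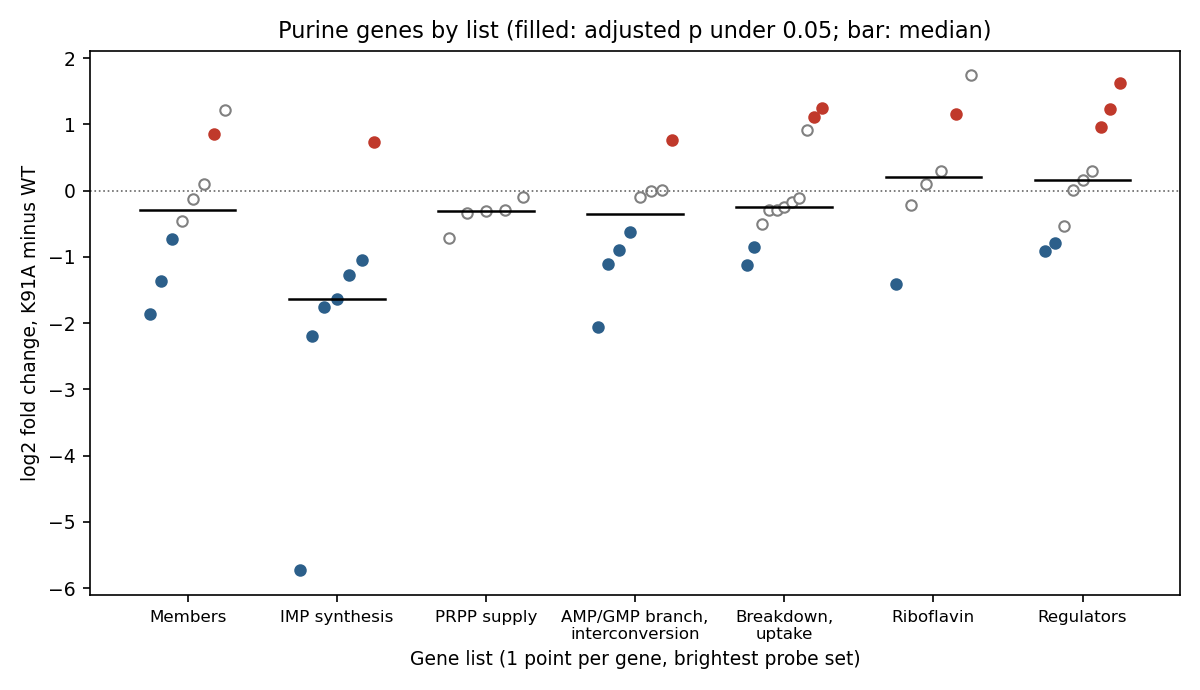
Log2 fold change, K91A minus WT, of the members and of 6 lists of purine genes (regulators and riboflavin synthesis included), 1 point per gene by its brightest probe set; filled points had a limma adjusted p under 0.05 and bars are medians. The IMP synthesis list has the lowest median (-1.64), with ADE2 at -5.73, and the median of the members is -0.29.

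Among 9 tested regulators of these genes, 3 were higher and 2 lower (median 0.15). That is 33.3% and 22.2%, against 15.4% and 14.8% of all probe sets. SAF1 encodes the F-box protein that marks the AAH1 product, adenine deaminase, for destruction when cells enter quiescence. Its level was 11.85 ± 0.50 in K91A and 10.24 ± 0.54 in WT (SD, n = 3 each), a rise of 1.62 on the log2 scale (SE 0.36, limma adjusted p = 0.0174). SAF1 RNA was higher in the strain in which AAH1 RNA was lower. The F-box protein acts on the adenine deaminase protein, which was not measured here, and a link between these RNA levels was not tested. The SAF1 call ended on the values as deposited (0.94, adjusted p = 0.363) but not when any 1 array was left out.

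NRD1 and NAB3 encode RNA-binding proteins of the complex that ends short transcripts upstream of IMD2. NRD1 was higher by 0.96 (SE 0.22, limma adjusted p = 0.0182) and NAB3 by 1.22 (SE 0.26, adjusted p = 0.0150), while SSU72, a phosphatase in the same termination pathway, fell by 0.91 (SE 0.22, adjusted p = 0.0227). The calls of all 3 ended without WT 1 (NRD1 0.0573, NAB3 0.0641, SSU72 0.0756) or WT 2 (0.0627, 0.0672, 0.0715), and that of SSU72 also without WT 3 (0.0650). On the values as deposited NRD1 was at 0.24 (adjusted p = 0.839), NAB3 at 0.73 (0.511) and SSU72 at -1.58 (0.114), none past the threshold. BAS1 (-0.53, adjusted p = 0.175) and PHO2 (0.0089, adjusted p = 0.980), which activate the adenine genes, did not pass and were named after their values were seen. Also named with values in view, SEN1 of the same list did not pass by its brightest probe set (0.30, limma adjusted p = 0.493). Its probe set 2871_s_at did pass, as higher (1.57, adjusted p = 0.0122), and DST1 was lower (-0.80, adjusted p = 0.0231).

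AAH1 is known to fall when yeast leaves rapid growth, so markers of glucose depletion and stationary phase were read beside it. The mean level of the 10 listed genes was 13.41 to 13.82 in K91A samples and 12.05 to 12.83 in WT samples, with no overlap. Of the 10, 6 were higher in K91A and 0 lower (8 had an unadjusted p under 0.05, none of them lower), and the median was 0.92. Over all probe sets 15.4% were higher and 14.8% lower. GAC1 (2.18), GRE1 (1.87), SNZ1 (0.95) and HSP26 (0.71) had the smallest p. In mean deposited intensity HSP26 was lower in K91A (19947, against 23466 in WT), while GAC1, GRE1 and SNZ1 were higher. The list mean was lowest on WT 3 (12.05, against 12.83 on WT 1 and 12.81 on WT 2). GAC1 was at 9.77 on WT 3, against 11.31 on WT 1 and 11.43 on WT 2. The part of growth phase in the AAH1 and SAF1 differences was not tested.

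Markers of mating type were read in the same way, beside the 15.4% higher and 14.8% lower of all probe sets. The mean level of 4 alpha-specific genes was 13.86 to 13.95 in K91A samples and 13.70 to 14.08 in WT samples. Of these genes 1 was called, MF(ALPHA)2, as higher (1.19). At an unadjusted p under 0.05, 1 was higher and 2 were lower, STE3 (-0.58) and SAG1 (-0.30), and the list median was -0.21. The mean level of 7 a-specific genes was 10.52 to 10.57 and 9.50 to 9.83, with 4 of the 7 left out as dim. Both calls among the 3 tested were higher, MFA1 (1.40) and MFA2 (0.99). The mean level of 7 haploid-specific genes was 11.29 to 11.55 and 11.81 to 11.93, with 1 lower, GPA1 (-2.09). Their part in the differences of the members was not tested.

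The direction of a member is relative to the bulk of transcripts, because the arrays differed in overall brightness. On the values as deposited the median log2 fold change of all probe sets was -0.82, with 32 higher and 671 lower in place of 1068 and 1023. Of the member probe sets, 2 were then lower and 0 higher past the limma threshold (0 higher also at an unadjusted p under 0.05). AAH1 was at -2.52 (adjusted p = 0.00866) and HPT1 at -2.19, whereas APT2 was at 0.088 and IMD4 9700_at at 0.90. All of AAH1, HPT1, APT1 and GUA1 lay below that median, and APT2, IMD3 and IMD4 9700_at above it.

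**Figure D5:**
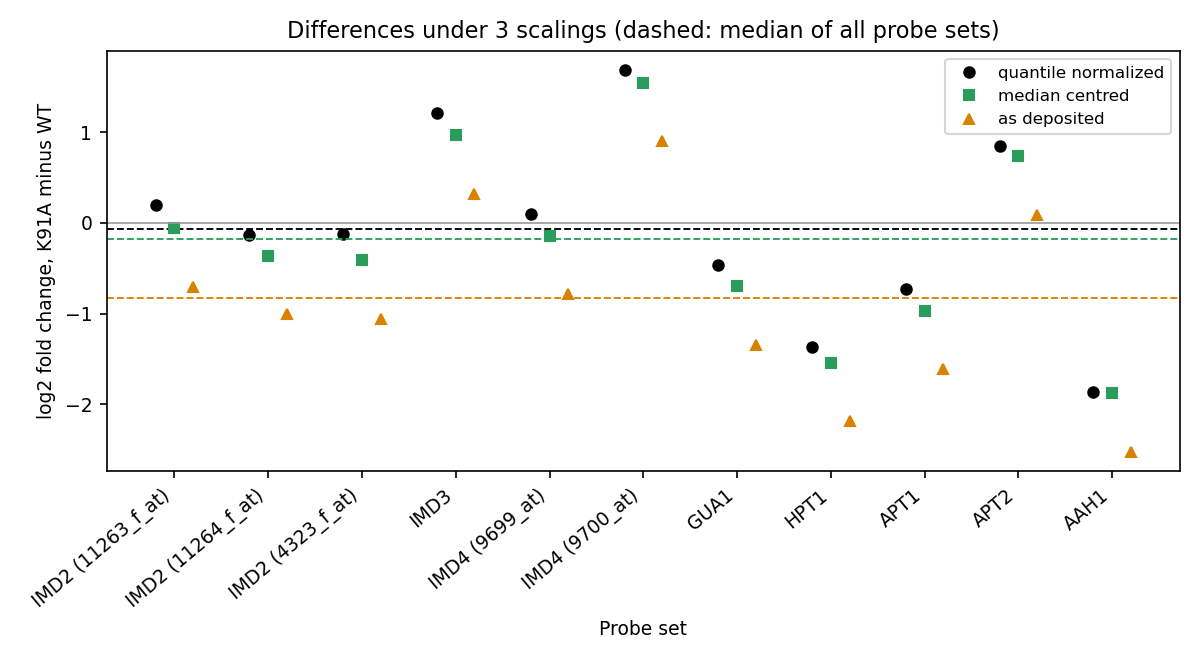
Log2 fold change, K91A minus WT, of the 11 probe sets with quantile normalized, median centred and unscaled (as deposited) values; dashed lines are the median of all probe sets under the same scaling (-0.070, -0.18 and -0.82). AAH1, HPT1, APT1 and GUA1 lie below the dashed line of each scaling, and IMD3, APT2 and IMD4 9700_at lie above it.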

How the data were processed

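The authors deposited a linear intensity for each probe set on each array. Their software, background correction and scaling are not given in the sources used here, and detection calls were not used here. Of 9335 probe sets, 60 controls, 33 with fewer than 2 values in a group and the dimmest 25% by mean were left out, which left 6931. That mean was over both strains, so ADE2 and ADE4 passed with K91A levels at the 14.6 to 23.2 percentile. Intensities were set to log2(intensity + 16) and quantile normalized. K91A minus WT was fitted by lmFit and eBayes with a mean-variance trend (limma 3.58.1, R 4.3.3), with Benjamini-Hochberg adjustment over all 6931 and a threshold of 0.05. The number of arrays limits the precision. Folds on this scale understate changes of dim probe sets.

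Samples were grouped by title. Symbols came from the platform annotation, updated by Entrez identifier through a RefSeq gene table (assembly R64), whose gene length was used for the length trend. Of 9275 probe sets other than controls, 6504 had 1 symbol, 328 several and 2443 none. Of 49 genes in the other purine lists, 48 had a probe set with 1 symbol. The gene made of the ADE5 and ADE7 activities was not analysed here.

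The members, lists and tests were chosen with earlier results of these data known. Named are all member probe sets, up to 4 called genes with the smallest p per list, and ADE2 and TRP1. Also named are the 2 most similar patterns per member called by its brightest probe set. Others are said to be outside this rule. Paralog pairs were compared with exact permutation tests. Replicate numbers were checked for pairing: deviations of same-numbered arrays correlated at 0.17, -0.15 and -0.01, so they were not taken as pairs. Tried as alternatives were a block on the replicate number, each array left out, K91A 3 as WT, other pseudocounts (1 and 64), scalings, filters, spread estimates, the length trend removed, and WT 1 and WT 2 averaged. The procedure was tested on simulated data.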

Additional observations from a re-analysis of the deposited data

How the results depend on the processing

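Over 18 alternatives AAH1 stayed lower and past the threshold in 17, the exception being K91A 3 counted as WT (-1.75, adjusted p = 0.320). APT2 kept its call in 14, IMD4 9700_at in 11, HPT1 in 10 and APT1 in 9. With K91A 3 counted as WT, limma called 0 probe sets in all, 0 member probe sets higher or lower and 0 other purine genes higher or lower, with 1056, 0, 1, 4 and 9 at an unadjusted p under 0.05. On the values as deposited 703 probe sets were called, with 0 members and 0 other purine genes higher (0 and 0 also unadjusted). With WT 1 and WT 2 averaged, 877 were called, with 0 members higher (2 unadjusted), 1 lower and 3 other purine genes higher. With the dimmest 50% left out, 1372 of 4621 were called, fewer being tested, and with median centring 5 other purine genes were higher.

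With each array left out in turn, 841 to 2300 probe sets were called in all, 0 to 2 members higher, 1 to 4 members lower, 3 to 7 other purine genes higher and 9 to 16 lower. The lowest total, 841, was without WT 2, followed by 925 without WT 1. Signs turned for IMD2 11264_f_at without K91A 2 (0.068, against -0.29 to 0.068 over the 6 arrays left out), for IMD2 11263_f_at as deposited (-0.71) and median centred (-0.060), and for IMD2 4323_f_at with K91A 3 as WT (0.0097). They also turned for IMD4 9699_at with K91A 3 as WT (-0.069), as deposited (-0.79), median centred (-0.14) and with the length trend removed (-0.086). As deposited, ADE16 (-0.12) and AMD1 (-0.074) turned too. None of these values passed under those settings. The median of all probe sets was -0.82 as deposited and -0.18 median centred. Every value that turned under these scalings stayed above that median, so its place relative to the bulk of transcripts did not turn. The cause of the turns under the other settings was not tested. The replicate number as a block gave 1535 calls and ended the APT1 call (adjusted p = 0.0753), while AAH1 (0.0153) kept it. It also ended those of GUK1, URH1, AMD1 and ADE16. The numbers are shared labels only, so this is not a weaker effect. The paralog differences kept their sign under their 5 alternatives, as did the difference between the IMD4 probe sets, which was 1.52 to 1.69.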
